A study of Mus musculus with 4 samples.

Results

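Interleukin receptors are the cell-surface proteins through which blood cells sense interleukins. The genes described here are the 37 of 22180 measured genes whose symbol is Il, a number and r, and they were chosen by that pattern alone. Expression was measured on 4 Affymetrix arrays, 1 per sample, in LSK cells sorted by flow cytometry from mouse bone marrow. LSK cells lack lineage markers and carry Sca1 and c-Kit, a profile that covers blood stem cells and multipotent progenitors. The 2 groups were wild-type (WT) and SRC-3 knockout (KO) male mice, both aged 8 weeks, with 2 samples each. SRC-3 is the product of Ncoa3 and helps nuclear receptors and further transcription factors to switch on genes. Samples within a group are labelled as biological replicates, without the number of mice behind each. If they share mice, the p-values reflect a spread that may be technical only. The labels do not give the knockout allele, the cells it acts in or the mouse strain.

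Interleukin receptors fall into a few structural families that signal by different routes. Receptors of the IL-2, IL-3, IL-6, IL-10 and IL-12 type bind JAK kinases, which activate STAT transcription factors. Receptors of the IL-1 and IL-18 type carry a TIR domain that recruits the adaptor Myd88, and IL-17 receptors recruit the adaptor encoded by Traf3ip2. Both of these routes lead to NF-kB. In the bone marrow, IL-3 and IL-6 support progenitor growth, IL-7 supports lymphoid development, and IL-1 is released in inflammation and drives stem and progenitor cells towards myeloid fates. Decoy receptors bind a ligand without passing on a signal.

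Values are log2 expression values, as the authors deposited them. Ncoa3, the targeted gene, was at 7.76 and 7.05 on the WT arrays and at 5.35 and 5.09 on the KO arrays, and fell 4.55-fold (limma adjusted p = 0.038). Across 22180 genes, arrays of a group correlated at r = 0.986 (WT) and r = 0.992 (KO), and arrays of different groups at r = 0.977 to 0.982. Genes are not independent replicates. Kit, which encodes the sort marker c-Kit, lay at percentile 97.9 of all genes, with 10.3 and 9.65 in WT and 9.43 and 9.34 in KO. Cd34, a marker of progenitors, lay at percentile 99.0. Markers of lineages that the sort removes were mixed in level. Below the median gene lay 8 of 11 T and NK cell markers, 4 of 7 B cell markers, 6 of 13 macrophage and dendritic cell markers and 2 of 12 neutrophil markers. Of 6 measured erythroid markers, 1 lay below the median gene. The mean of the erythroid markers was 4.17 to 4.45 in WT and 6.18 to 6.19 in KO. The T cell gene Cd3e was at percentile 26.2 and the granulocyte gene Ly6g at 2.87 in WT and 2.81 in KO, while Nkg7, Cd79b and Cd68 lay at percentiles 98.6, 85.8 and 87.8. Mpo, Elane and Prtn3, granule genes that myeloid progenitors also express, lay at 99.9, 99.7 and 99.6. Ly6a, which encodes Sca1, was not analysed here. In bulk samples, fewer cells of a type and less RNA per cell cannot be told apart.

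KO against WT, 1 interleukin receptor gene passed the test over all genes, the decoy receptor gene Il1r2, which fell 2.95-fold. Across all genes tested, 0.509% passed this test, 0.397% higher and 0.113% lower. None of the 37 receptor genes was called higher by limma. Without WT replicate 2, limma called 7 lower, which were Il1r2, Il6ra, Il4ra, Il17re, Il10rb, Il17ra and Il18rap, with adjusted p-values from 0.00991 to 0.048, and it called 5.73% of all genes lower. That fit has 1 WT array, whose spread is assumed to be that of the KO arrays. Without KO replicate 1 or KO replicate 2 it called 0. At an unadjusted p under 0.05, 9 of the 37 were lower (24.3%) and 1 was higher (2.70%), while 17.4% of all genes were past that threshold, 6.93% lower and 10.5% higher. Without KO replicate 2 the lower count was 4, with 4.22% of all genes lower in that fit. Both KO arrays lay below both WT arrays for 17 of the 37 (45.9%), and above them for 4 (10.8%). For all genes these shares were 22.9% and 25.1%. The median difference was -0.12 (log2, KO minus WT) over the 37 genes and -0.0010 over all genes. Over the 37 it was -0.24 without KO replicate 1 and -0.08 without KO replicate 2. Without WT replicate 1 it was -0.13, and without WT replicate 2 it was -0.17. After quantile normalization it was -0.07, against 0.06 over all genes. Of the 9 lower genes, 5 belong to the IL-1 group and 3 to the IL-17 group, and the other is Il4ra. The higher gene is Il12rb1. With 2 arrays against 2, an exact permutation test of a single gene cannot give a two-sided p below 0.333, so each p rests on the model fitted over all genes.

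**Figure D1:**
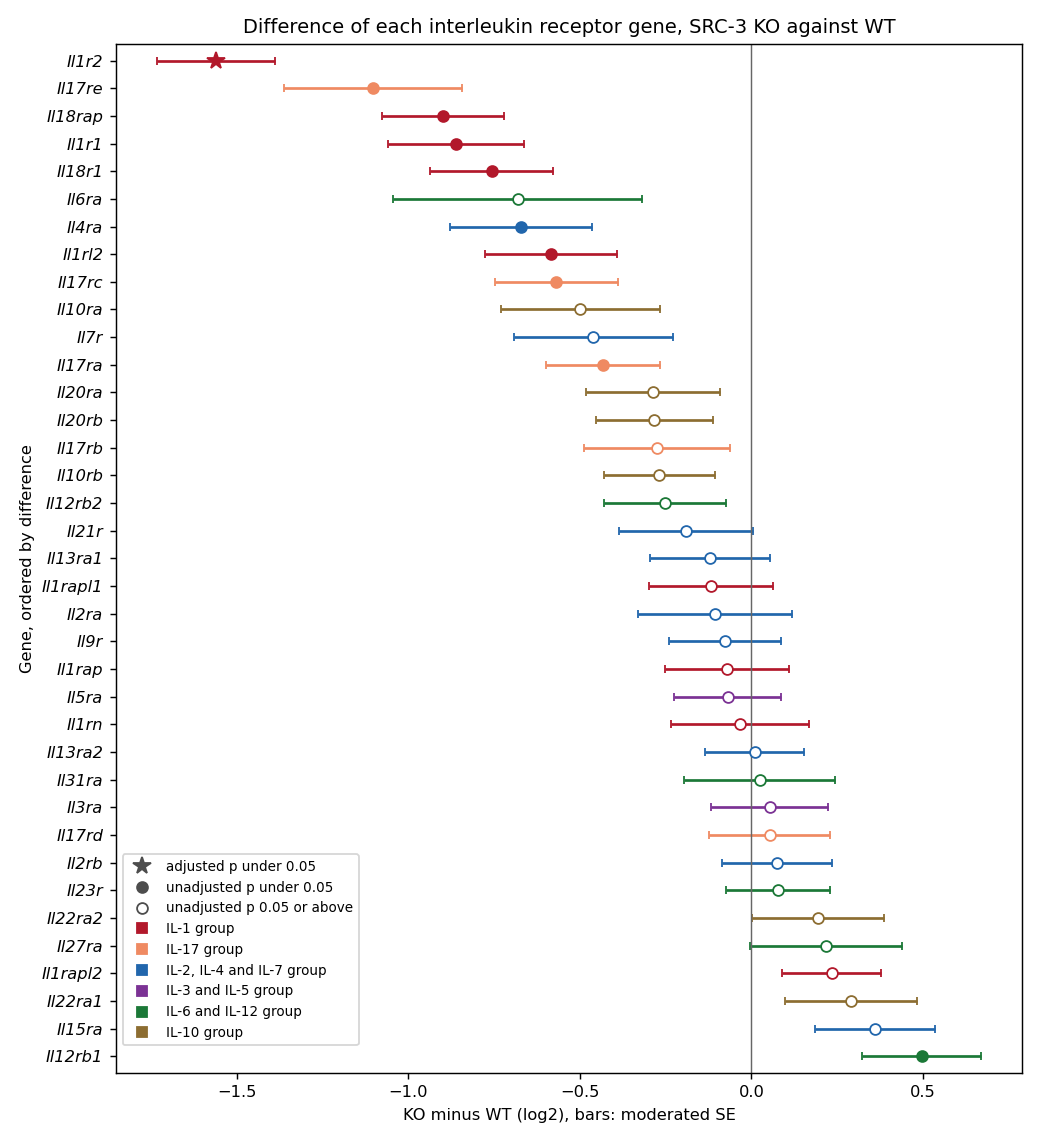
Difference between KO and WT for each of the 37 interleukin receptor genes (x axis, log2, KO minus WT), ordered by size and coloured by receptor group, with bars for the moderated standard error. Il1r2 is at -1.56 at the top, and the filled points are the genes at an unadjusted p under 0.05, of which 9 lie left of 0 and Il12rb1, at 0.50, lies right of it.

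The lower genes of the IL-1 group are neighbours. In RefSeq, 6 receptor genes lie side by side on chromosome 1 with no other protein-coding gene between them, in the order Il1r2, Il1r1, Il1rl2, Il1rl1, Il18r1 and Il18rap. Of these, 5 were measured here, and for each of the 5 both KO arrays lay below both WT arrays. Il1rl1 was not analysed here. To show what lies in front of these genes, the 250 bases before the start site are printed for the 3 genes of the run with the smallest p-values, from RefSeq on build GRCm38.p6, 5′ to 3′. For Il1r1, which has 2 start sites in that table, the more upstream one is used. Capitals mark a STAT-type motif, TTCNNNGAA.
Il1r2, chr1:40085843-40086092 (+ strand): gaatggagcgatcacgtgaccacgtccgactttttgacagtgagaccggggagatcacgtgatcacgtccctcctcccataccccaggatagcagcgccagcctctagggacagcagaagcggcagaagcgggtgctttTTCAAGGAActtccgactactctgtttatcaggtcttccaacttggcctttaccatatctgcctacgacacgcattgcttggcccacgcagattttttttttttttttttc
Il1r1, chr1:40224830-40225079 (+ strand): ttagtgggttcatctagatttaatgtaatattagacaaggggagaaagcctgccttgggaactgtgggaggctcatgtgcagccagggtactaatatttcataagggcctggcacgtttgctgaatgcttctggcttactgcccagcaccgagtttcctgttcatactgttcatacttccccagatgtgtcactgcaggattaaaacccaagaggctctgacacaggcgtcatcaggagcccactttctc
Il18rap, chr1:40515112-40515361 (+ strand): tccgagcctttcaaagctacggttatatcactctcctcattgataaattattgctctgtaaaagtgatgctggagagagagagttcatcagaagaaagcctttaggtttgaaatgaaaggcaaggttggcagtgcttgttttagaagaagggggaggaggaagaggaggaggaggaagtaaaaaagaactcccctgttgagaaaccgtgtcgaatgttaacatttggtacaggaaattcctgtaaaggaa

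Of these windows, the one before Il1r2 held 1 match to TTCNNNGAA, and the others held no match to any motif searched. The motifs were searched on both strands in 32851 RefSeq windows of 250 bases, which covered 30 of the 37 receptor genes with 36 windows. TTCNNNGAA, the core of sites that STAT factors bind, was in 7.02% of all windows and in 5 of the 36. Those 5 belong to Il12rb2, Il18r1, Il1r2, Il31ra and Il7r. TGANTCA, a motif of the AP-1 factors, was in 6.75% of all windows and in 7 of the 36. AGGTCA, the half-site that nuclear receptors bind, was in 14.0% of all windows and in 3 of the 36. A match is a description of letters and not a measured binding site.

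Il1r2 (gene identifier 16178, probe set 17212174) encodes a decoy that binds IL-1 and carries no signalling domain. Its values were 5.61 and 5.68 on the WT arrays and 4.15 and 4.02 on the KO arrays. Both WT values lay above the median gene of 4.32, and both KO values lay below it. The difference was -1.56 ± 0.17 (SE), with a limma adjusted p of 0.0279. Leaving out KO replicate 1 gave -1.63 (adjusted p = 0.609), and leaving out KO replicate 2 gave -1.49 (adjusted p = 0.511). In those fits, with 1 KO array, limma called 0 of all genes, with 1471 and 1910 at an unadjusted p under 0.05. When each of the 41345 probe sets was its own unit, the adjusted p of Il1r2 was 0.0804.

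Il1r1 encodes the receptor that passes on the IL-1 signal. It was at 6.50 and 6.49 in WT and at 5.82 and 5.45 in KO. The WT arrays differed by less than the KO arrays did, and the groups did not overlap. The difference was -0.86 ± 0.20 (SE, adjusted p = 0.113), which did not pass over all genes. Il1rl2, the receptor for IL-36 cytokines, was at 5.34 and 5.11 in WT and at 4.77 and 4.51 in KO, a difference of -0.59 ± 0.19 (SE, adjusted p = 0.198).

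Il18r1 and Il18rap encode the binding chain and the accessory chain of the IL-18 receptor. Il18rap was at 5.27 and 5.11 in WT and at 4.37 and 4.21 in KO, a difference of -0.90 ± 0.18 (SE, adjusted p = 0.0889). Il18r1 was at 4.32 and 4.07 in WT and at 3.36 and 3.52 in KO, a difference of -0.76 ± 0.18 (SE, adjusted p = 0.117). Both chains thus had the same direction on every array pair, and neither passed over all genes. The groups did not overlap for any of the 5 measured neighbours. Leaving out a single array therefore could not turn the sign of their differences. The number of the 5 at an unadjusted p under 0.05 was 3 without KO replicate 2, 4 without WT replicate 1 and 5 in the other fits.

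The genes on either side of the run were read in the same way, as the 6 nearest protein-coding genes on each side. All 12 were measured, and 4 had a lower mean in KO. Map4k4, a kinase gene directly next to Il1r2, was at 8.93 and 8.66 in WT and at 7.70 and 7.58 in KO, a difference of -1.16 ± 0.17 (SE, adjusted p = 0.0591). Slc9a4, directly next to Il18rap on the other side, was dim, with a mean of 2.90 over the 4 arrays, and was at 0.07 ± 0.18 (SE). At an unadjusted p under 0.05, Map4k4 was the lower one of the 12, and Mrps9, a mitochondrial ribosome gene, the higher one, at 0.72 ± 0.17. The other 10 ran from -0.22 to 0.19. Among these 10, Cnot11, Rnf149 and Mfsd9 lay above the median gene of 4.32, with means of 7.25, 5.64 and 4.86, and the rest lay below it.

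**Figure D2:**
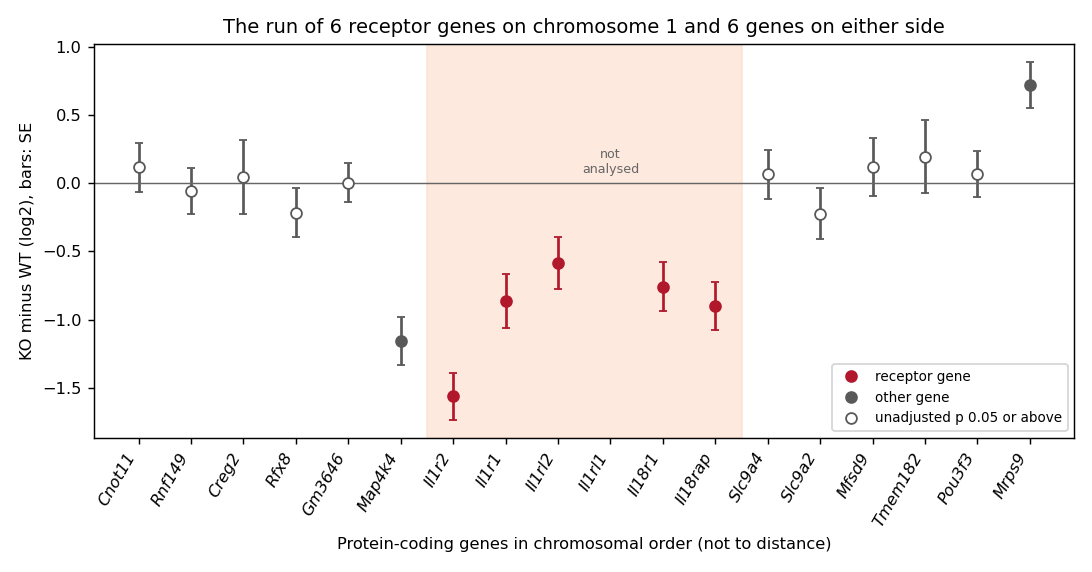
KO minus WT (y axis, log2, bars for the standard error) for the 6 neighbouring receptor genes on chromosome 1, in red on the shaded band, and for 6 protein-coding genes on either side, in grey. Genes stand in chromosomal order without distances. The 5 measured receptor genes lie between -1.56 and -0.59, Map4k4 lies beside them at -1.16, and the genes beyond them lie near 0 apart from Mrps9 at 0.72.

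The other genes of the IL-1 group lie elsewhere in the genome. Il1rap, the co-receptor that Il1r1 needs to signal and that also serves IL-33 and IL-36 receptors, was at 5.56 and 5.35 in WT and at 5.43 and 5.33 in KO. The groups overlapped, and the difference was -0.07 ± 0.18 (SE, adjusted p = 0.889). Il1rap is the member with more than 1 single-gene probe set. Its other 2 probe sets were dim, with means of 2.13 and 2.26, and differed by -0.34 and 0.08. Il1rn encodes a secreted IL-1 antagonist and not a receptor, and was at -0.03 ± 0.20. Il1rapl1 and Il1rapl2, relatives of the co-receptor that are known from neurons, lay at percentiles 8.83 and 7.87 of all genes. Over the 9 measured genes of the group the median difference was -0.59, and 8 had a lower mean in KO.

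Genes of the IL-17 group had a median difference of -0.43 over 5 measured genes, and 3 were lower at an unadjusted p under 0.05. Il17ra, the chain that most IL-17 receptors share, was at 7.55 and 7.43 in WT and at 7.08 and 7.04 in KO. It is at percentile 85.3 of all genes, and the difference was -0.43 ± 0.17 (SE, adjusted p = 0.253). Il17re, which pairs with Il17ra to bind IL-17C, was at 6.41 and 5.72 in WT and at 5.03 and 4.89 in KO. WT replicate 1 stood highest, the groups did not overlap, and the difference was -1.10 ± 0.26 (SE, adjusted p = 0.116).

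Il17rc, the partner for IL-17A and IL-17F, is the direct neighbour of Il17re on chromosome 6. It was at 5.12 and 4.92 in WT and at 4.39 and 4.52 in KO, a difference of -0.57 ± 0.18 (SE, adjusted p = 0.185). Il17rb, the receptor for IL-25, was at -0.28 ± 0.21, and Il17rd, a regulator of several growth factor signals, at 0.05 ± 0.18. For both of these the WT and KO arrays overlapped.

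RefSeq holds 6 such runs, with 15 of the 37 genes in them. The pairs outside the IL-1 and IL-17 runs had mixed differences. Il4ra and Il21r were at -0.67 ± 0.21 and -0.19 ± 0.20, Il2ra and Il15ra at -0.11 ± 0.22 and 0.36 ± 0.17, Il12rb2 and Il23r at -0.25 ± 0.18 and 0.08 ± 0.15, and Il20ra and Il22ra2 at -0.29 ± 0.19 and 0.19 ± 0.19 (SE). None of these 8 genes passed over all genes in limma, and 1, Il4ra, was at an unadjusted p under 0.05.

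The receptors that share JAK and STAT signalling are described by ligand. Il4ra, the chain that binds IL-4 and serves IL-13, was at 7.84 and 7.38 in WT and at 6.95 and 6.93 in KO. Both KO values lay below both WT values, and the adjusted p was 0.179. The difference was -0.67, and -0.44 without WT replicate 1. Il7r, the receptor chain that marks lymphoid progenitors, was at 5.31 and 5.22 in WT and at 5.09 and 4.52 in KO. The 2 KO arrays differed by more than the nearest WT and KO arrays did, and the difference was -0.46 ± 0.23 (SE, adjusted p = 0.371). Il15ra, which presents IL-15, was at 5.38 and 5.53 in WT and at 5.85 and 5.78 in KO (adjusted p = 0.353).

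The other 6 measured genes of the IL-2, IL-4 and IL-7 group lay below the median gene. Il2ra and Il2rb, the IL-2 receptor chains of activated lymphocytes, differed by -0.11 ± 0.22 and 0.08 ± 0.16 (SE). Il9r and Il21r, whose ligands act mainly on mast cells and lymphocytes, were at -0.08 ± 0.16 and -0.19 ± 0.20, and Il13ra1 and the decoy Il13ra2 at -0.12 ± 0.17 and 0.01 ± 0.14. Their differences ran from -0.19 to 0.08. In this group, 6 of 9 had a lower mean in KO, and the median was -0.11.

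Il3ra, the binding chain for the progenitor growth factor IL-3, was near equal in the groups. It was at 7.25 and 7.10 in WT and at 7.18 and 7.28 in KO, so the arrays overlapped. The difference was 0.05 ± 0.17 (SE, adjusted p = 0.915), and without WT replicate 2 its sign turned, at -0.020. Il5ra, the IL-5 chain typical of eosinophils, lay at percentile 19.7, at -0.07 ± 0.16.

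In the IL-6 and IL-12 group, Il12rb1 stood higher in KO. It encodes the chain shared by the IL-12 and IL-23 receptors, and was at 5.31 and 5.20 in WT and at 5.80 and 5.71 in KO. The groups did not overlap, and the difference was 0.50 ± 0.17 (SE, adjusted p = 0.216). Of its partner chains, Il12rb2 was at -0.25 ± 0.18 and Il23r, at percentile 11.9 of all genes, at 0.08 ± 0.15.

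Il6ra, the binding chain for IL-6, was at 8.81 and 7.65 in WT and at 7.64 and 7.46 in KO. WT replicate 1 stood 1 log2 unit or more above the other arrays, which lay close together. The difference was -0.68 ± 0.36 (SE, adjusted p = 0.398). It was -0.10 without WT replicate 1 (adjusted p = 0.674), and -1.26 without WT replicate 2 (adjusted p = 0.00991). Il27ra, the receptor for IL-27, was at 6.54 and 6.05 in WT and at 6.61 and 6.42 in KO. The arrays overlapped, the difference was 0.22 ± 0.22 (SE, adjusted p = 0.679), and without WT replicate 2 it was -0.024. Il31ra was at 6.30 and 5.91 in WT and at 6.30 and 5.97 in KO, near equal between the groups.

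Il10rb, the accessory chain shared by receptors for IL-10, IL-22 and lambda interferons, lay at percentile 94.4 of all genes. It was at 8.82 and 8.60 in WT and at 8.46 and 8.42 in KO. Both KO arrays lay below both WT arrays, and the difference was -0.27 ± 0.16 (SE, adjusted p = 0.456). Without WT replicate 1 it was -0.16. Il10ra, the chain that binds IL-10 itself, was at 5.35 and 5.09 in WT and at 4.98 and 4.46 in KO, a difference of -0.50 ± 0.23 (SE, adjusted p = 0.335). Il20ra, Il20rb, Il22ra1 and the soluble decoy Il22ra2, whose ligands act mainly on epithelia, lay between percentiles 14.2 and 37.4. Their differences ran from -0.29 to 0.29.

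By level, 6 of the 37 genes lay at or above the 75th percentile of all genes, 14 between the median and that percentile, and 17 below the median. The 6 were Il10rb, Il6ra, Il4ra, Il17ra, Il3ra and Il27ra. Percentiles place a gene's mean over the 4 arrays among the means of all genes. Probe sets differ in how strongly they bind, so no level of one gene was tested against that of another. Among the 20 genes at or above the median, 13 had both KO arrays below both WT arrays (65.0%) and 8 were lower at an unadjusted p under 0.05 (40.0%). Of all genes at that level, 24.7% and 9.55% were. The level is the mean over WT and KO arrays together. Il1r2 and Il18rap are among the 20 only through their WT values, as their KO means of 4.09 and 4.29 lay below the median gene. The shares at this level are therefore partly set by the way the genes were split. Among the 17 dimmer receptor genes, 1 was lower at that threshold, Il18r1 (5.88%), against 4.30% of all genes below the median.

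**Figure D3:**
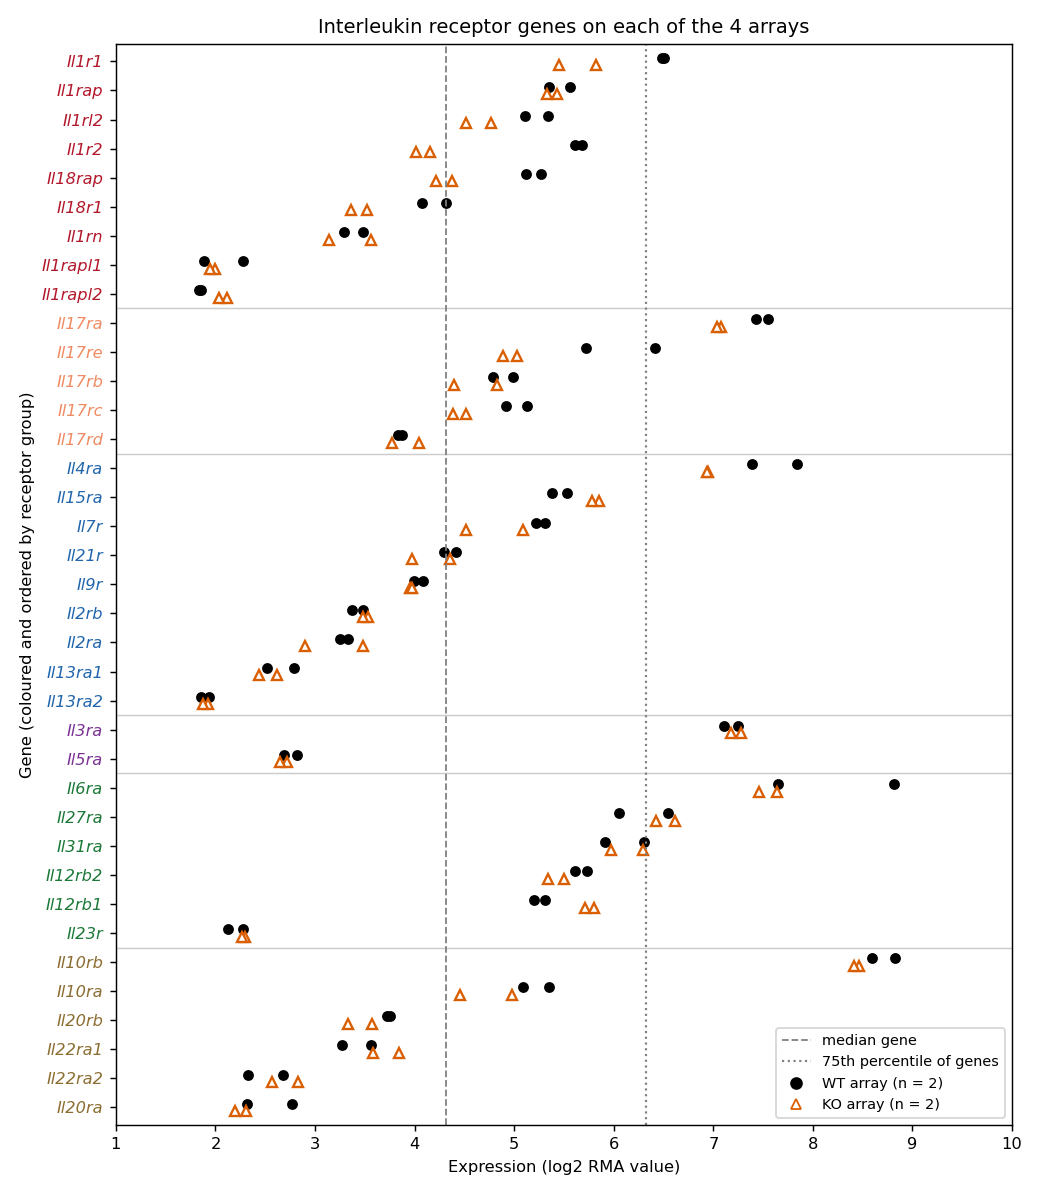
Log2 expression value of each interleukin receptor gene (x axis) on the 2 WT arrays (filled circles) and 2 KO arrays (open triangles), grouped by receptor group. The dashed and dotted lines mark the median gene (4.32) and the 75th percentile (6.33). Circles lie right of the triangles for Il1r2, Il1r1, Il1rl2, Il18r1 and Il18rap, and left of them for Il12rb1.

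The other genes of these pathways were read from lists of partner chains, signalling proteins, inhibitors, targets and ligands, and limma called none of them over all genes. At an unadjusted p under 0.05, 6.93% of all genes were lower and 10.5% higher, which is the background for the count of each list. Among 10 partner receptor chains, 1 was lower at that threshold and 0 were higher. It was Il6st, which encodes gp130, the signalling chain of the IL-6 family. Il6st was at 9.27 and 8.70 in WT and at 8.22 and 8.12 in KO, a difference of -0.81 ± 0.22 (SE, adjusted p = 0.146). Csf2rb, the chain that Il3ra and Il5ra need to signal, was at -0.41 ± 0.25, Lifr at -0.37 ± 0.17 and Csf2ra at 0.35 ± 0.18.

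Among 9 measured JAK kinases and STAT factors, 2 were lower (22.2%) and 1 was higher (11.1%) at that threshold. Over all genes these shares were 6.93% and 10.5%. Stat4, the factor that IL-12 activates, was at 8.23 and 8.02 in WT and at 7.30 and 7.23 in KO, a difference of -0.85 ± 0.17 (SE, adjusted p = 0.0897). Stat3, which IL-6 and IL-10 activate, was at -0.46 ± 0.19 (adjusted p = 0.279). Stat2, a factor of interferon signalling, was at 0.63 ± 0.19 (adjusted p = 0.172). Jak1, the kinase most of these receptors use, was at -0.32 ± 0.15 and lay at percentile 96.3.

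Among 11 measured adaptors of the TIR and IL-17 receptors, Tab1 was higher, at 0.74 ± 0.20 (adjusted p = 0.143), and Tab2 lower, at -0.50 ± 0.16 (adjusted p = 0.190), at an unadjusted p under 0.05. Both encode partners of the kinase of Map3k7, which was at -0.01 ± 0.17. Irak3, an inhibitor of IL-1 signalling, was at -0.40 ± 0.18, and Tab3 at -0.23 ± 0.18. Of 8 SOCS genes, which encode feedback inhibitors of JAK signalling, Socs1 was higher at that threshold. It was at 5.81 and 5.83 in WT and at 6.59 and 6.62 in KO, a difference of 0.79 ± 0.17 (SE, adjusted p = 0.102). Socs1 is also induced by interferons. Socs7, Socs4 and Socs5 were at -0.42 ± 0.22, -0.41 ± 0.21 and -0.22 ± 0.17.

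Of 9 genes known as STAT5 targets, 1 was lower at that threshold (11.1%, against 6.93% of all genes) and 0 higher. The survival gene Bcl2 was at 10.04 and 9.996 in WT and at 9.51 and 9.46 in KO, with a difference of -0.54 ± 0.13 (SE, adjusted p = 0.128). Pim2 was at -0.55 ± 0.28, Osm at 0.18 ± 0.17 and Socs2 at 0.16 ± 0.19. Of 41 cytokine ligand genes, 32 lay below the median gene, 4 were higher and 0 lower at that threshold. The share higher was 9.76%, near the 10.5% of all genes. Il1f9, which encodes an IL-36 cytokine, was at 1.97 and 2.39 in WT and at 3.34 and 3.13 in KO, at percentile 19.4 (adjusted p = 0.0844). Il4, Il23a and Tslp were at 0.57 ± 0.19, 0.48 ± 0.18 and 0.63 ± 0.23 (SE). The list medians were -0.15 for partner chains, -0.24 for JAK and STAT genes, -0.05 for adaptors, -0.18 for SOCS genes, 0.03 for STAT5 targets and 0.01 for ligands.

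**Figure D4:**
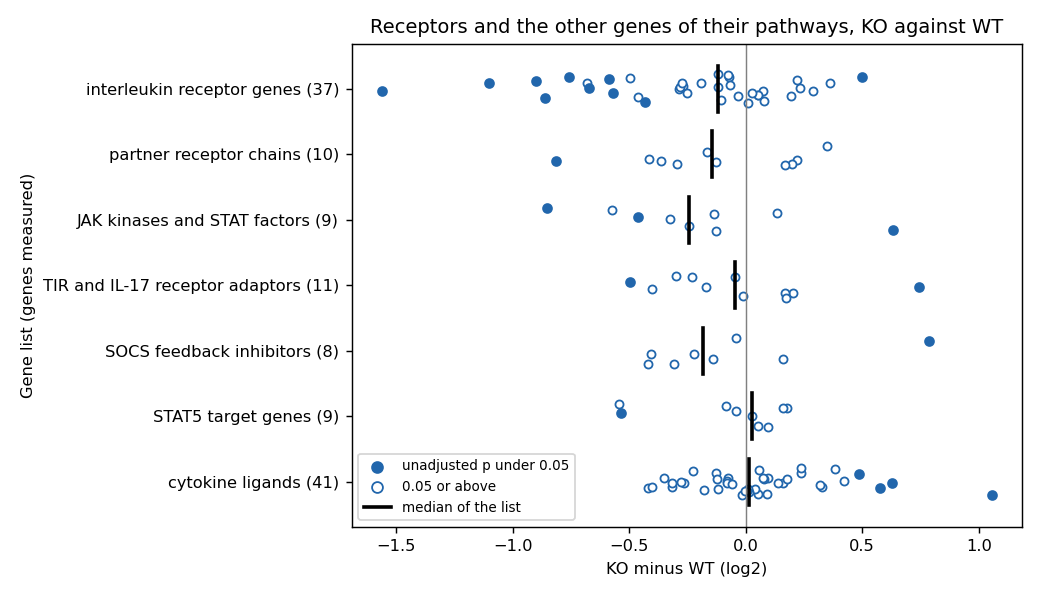
KO minus WT (x axis, log2) for the 37 interleukin receptor genes and for 6 lists of other pathway genes, with 1 point per gene, filled at an unadjusted p under 0.05, and a black bar at the median of each list. The receptor genes reach furthest to the left, to -1.56, while the ligand genes centre on 0.01. Cish, Socs2 and Osm are each in 2 lists.

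Markers of several cell states also differed between KO and WT, some lists lower and some higher, and their part in the result was not tested. Over all genes, both KO arrays lay below both WT arrays for 22.9%, which is the background for the counts without overlap given here. Of 8 measured LSK and stem cell markers, 7 had both KO arrays below both WT arrays. Among them were Hlf at -1.18 ± 0.18, Cd34 at -0.68 ± 0.13 and Flt3 at -1.21 ± 0.27 (SE). The remaining marker, Slamf1, had both KO arrays above both WT arrays, at 0.18 ± 0.17. The mean of that list was 7.65 to 8.01 in WT and 7.12 to 7.14 in KO. Lymphoid priming genes ran at 6.70 to 6.93 in WT and 5.96 to 6.16 in KO, with 7 of 8 not overlapping and lower, among them Lax1 at -1.19 ± 0.22 and Satb1 at -0.83 ± 0.17. Innate lymphoid markers, whose cells carry IL-1 and IL-18 receptors, ran at 4.49 to 4.53 in WT and 4.07 to 4.13 in KO. Of these, 5 of 6 were lower without overlap, with Rora at -0.65 ± 0.17 and Gata3 at -0.45 ± 0.20. However, 4 of the 6 lay below the median gene, and 1, Rora, was at an unadjusted p under 0.05. Genes that handling of cells induces had 8 of 12 lower without overlap, with Egr1 at -1.11 ± 0.23. Ier2 was higher without overlap, at 0.23 ± 0.17, and Dusp1, Jun and Junb overlapped, at -0.24 ± 0.24, -0.26 ± 0.41 and -0.03 ± 0.31. Jun was at 11.71 and 10.28 in WT and at 10.75 and 10.72 in KO. The mean of the handling genes was 8.91 to 9.49 in WT and 8.65 to 8.69 in KO.

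Mature neutrophils are known to express Il1r2, and the relation of Il1r2 to the neutrophil markers was not tested. The mean of the neutrophil markers was 6.27 to 6.50 in WT and 7.08 to 7.14 in KO. Of the 12, 9 were higher without overlap, among them Camp at 1.80 ± 0.26 and Ngp at 1.15 ± 0.17 (SE). Over all genes that share was 25.1%. The other 3 overlapped, with Cxcr2 at 0.10 ± 0.21, Mpo at 0.06 ± 0.14 and Ly6g at -0.06 ± 0.16. Mast cell and basophil markers, whose cells carry Il3ra, ran at 3.89 to 4.13 in WT and 4.19 to 4.26 in KO. The T and NK cell mean was 3.90 to 4.19 in WT and 4.02 to 4.05 in KO, so the groups overlapped, and that of B cell markers was 4.43 to 4.52 and 4.30 to 4.38. Eosinophil markers ran at 3.50 to 3.62 and 3.78 to 3.85, and Prg3, an eosinophil granule gene, rose 2.36-fold (adjusted p = 0.0497), while Siglecf was at 0.51 ± 0.18, Epx at -0.54 ± 0.20 and Prg2 at -0.05 ± 0.23. Macrophage and dendritic cell markers ran at 5.41 to 5.44 and 5.52 to 5.58, and H2-Aa, an MHC class II gene, rose 3.32-fold (adjusted p = 0.0227). Of the 13 genes in that list 6 had a lower mean in KO, among them Flt3 at -1.21 ± 0.27 and Cd68 at -0.26 ± 0.20, and the list median was 0.07. Erythroid markers ran at 4.17 to 4.45 and 6.18 to 6.19, and limma called 3 of 6 higher. These were Ermap, up 15.6-fold (adjusted p = 0.00904), Rhag, up 12.7-fold (adjusted p = 0.00904), and Klf1, up 5.46-fold (adjusted p = 0.0389). Of the 6, 1 had a lower mean in KO, Slc4a1 at -0.96 ± 0.24. Megakaryocyte markers ran at 5.27 to 5.32 and 5.51 to 5.52, and stromal and endothelial markers at 4.67 to 4.86 and 4.49 to 4.50.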

How the data were processed

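Per the submitters' processing notes, the authors used RMA and Affymetrix Expression Console 1.2.1, and they deposited log2 values for 41345 probe sets on 4 arrays. Settings, filters and build: not given in the sources used here. The log2 scale was taken from the deposited values, which ran from 0.375 to 12.8. The platform annotation gave 23521 probe sets with 1 gene symbol. A gene's brightest such probe set by mean stood for it, and dim genes were kept. KO was compared with WT over 22180 genes in limma 3.58.1 (R 4.3.3), with an intensity trend, two-sided p-values and Benjamini-Hochberg adjustment over all genes, called at an adjusted p under 0.05. Errors are moderated standard errors (SE). The number of arrays, 2 per group, limits the precision.

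The members were chosen by symbol, and the members, gene lists, naming rule and alternatives were chosen with earlier results of these data known. Values on each array are given for members at an unadjusted p under 0.05 or at or above the 75th percentile, and for some other members, pathway and neighbouring genes that were added after the values were seen. Pathway genes named are those of smallest p in each list, up to 4, and marker genes up to 3 and the defining ones, with others added after the values were seen. RefSeq (GRCm38.p6) held 41 genes of this pattern, and 4 of them (Il11ra1, Il11ra2, Il1rl1 and Il2rg) were not analysed here. That table was used for gene order. The model was tested on simulated data for this comparison over 22180 genes. The share recovered was 3.21% for a log2 change of 1, 60.3% for 2 and 82.7% for 3. Of the calls, 1.07% were false. The simulated noise was independent between genes and arrays and equal in both groups, with 200 changed genes per run. Shifts of a whole array were not simulated, so these shares may not hold for the real arrays.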

Additional observations from a re-analysis of the deposited data

How the results depend on the processing

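Il1r2 kept its call with quantile normalization, without the intensity trend and with the replicate block (adjusted p = 0.0269). It was also called when probe sets of a gene were averaged and when dim genes below the median were dropped. Neither of these 2 settings changes its values, as Il1r2 has 1 probe set and passed the median filter only through its WT values. Without WT replicate 1 its difference was -1.59. With every probe set as a unit, 0 receptor genes were called, and Il1r2 had an adjusted p of 0.0804. When arrays were left out singly, the number called lower ran from 0 to 7, with 7 without WT replicate 2 and 0 without either KO array. The number lower at an unadjusted p under 0.05 ran from 4 to 11, with 4 without KO replicate 2. In these fits the share of all genes lower at that threshold was 7.57% without WT replicate 1, 12.3% without WT replicate 2, 2.86% without KO replicate 1 and 4.22% without KO replicate 2. The number of receptor genes higher at that threshold ran from 0 to 2. With all arrays these receptor gene counts were 9 and 1. After quantile normalization 3 were higher. With arrays left out in turn, Il3ra ran from -0.020 to 0.13 and Il27ra from -0.024 to 0.46, both negative without WT replicate 2. Of all genes, 88 were higher and 25 lower in the reported fit, 208 and 81 with dim genes dropped, 142 and 47 with quantile normalization, and 10 and 17 over all probe sets. Without WT replicate 1 these counts were 1442 and 312, without WT replicate 2 they were 1730 and 1272, and without either KO array limma called 0, while 1471 and 1910 had an unadjusted p under 0.05. The cause was not tested.

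The replicate numbers do not name shared animals, and deviations of same-numbered arrays correlated at 0.11. With the replicate block, 1 receptor gene was called lower and 10 had a lower mean with an unadjusted p under 0.05, against 7.90% of all genes. Of the 10, 8 were among the 9 of the fit without the block. Il17ra was no longer past that threshold and Il6ra was. Of all genes, 83 were called higher and 28 lower.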
